A study of Mus musculus with 10 samples.

Results

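The genes of cholesterol and fatty acid synthesis were followed as a set of 29 genes, chosen by name from their known places in these pathways. All 29 were present both in the read count tables of sorted tumour cells (55341 genes) and in the matrix of unique molecular identifier (UMI) counts of single cells (32285 genes). The mice carried orthotopic lung tumours grown from KP cells injected intravenously into syngeneic mice, whose strain and age the sources used here do not give, and every mouse was dosed for 11 days. SHP099 is an inhibitor of the phosphatase SHP2, and SX682 is an antagonist of the chemokine receptors CXCR1 and CXCR2. Epcam+ cells sorted from the nodules were sequenced in bulk after SHP099 (3 libraries) and after vehicle (3 libraries). Live cells of dissociated nodules were sequenced singly after SHP099, after SX682, after SHP099 with SX682 (the combination) and after vehicle, with 3 mice in each group. The cells of the 3 mice of a treatment were tagged with hashtag oligonucleotides and captured as 1 pool, so that capture and treatment cannot be told apart. Whether the 3 bulk libraries of a group came from separate mice is not stated, so their p-values measure the spread between these libraries.

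Cholesterol is built from acetyl-CoA through mevalonate, farnesyl diphosphate, squalene and lanosterol. The SREBP transcription factors switch the pathway on: while sterol is plentiful, the INSIG proteins hold SREBP and its escort SCAP in the endoplasmic reticulum, and when membrane sterol falls SREBP is carried to the Golgi, cut, and released to the nucleus. Srebf2 encodes the form that acts mainly on cholesterol genes, and Srebf1 the form that acts mainly on fatty acid genes. In the lung, alveolar type 2 cells are known for heavy fatty acid synthesis because they secrete surfactant lipid, and macrophages are known for taking up and exporting cholesterol.

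The set was ordered by role. The mevalonate branch, up to farnesyl diphosphate, held 7 members (Acat2, Hmgcs1, Mvk, Pmvk, Mvd, Idi1 and Fdps). The branch that leads on through squalene to cholesterol held 11 (Fdft1, Sqle, Lss, Cyp51, Tm7sf2, Msmo1, Nsdhl, Hsd17b7, Ebp, Sc5d and Dhcr7). The regulators were 5 (Srebf1, Srebf2, Scap, Insig1 and Insig2), Stard4 stood for sterol transport inside the cell, and 5 genes make and desaturate fatty acids (Acly, Acaca, Fasn, Scd1 and Scd2).

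The promoters of 5 enzymes are printed because these members were higher together in macrophage-like cells after SHP099; Dhcr7, also higher there, has 3 listed starts, of which none is printed. Each runs from 250 bases before to 50 bases after the start that RefSeq lists on GRCm38.p6, 5′ to 3′ on the gene's strand. Capitals mark the CCAAT box (CCAAT or ATTGG, its other strand) and the sterol regulatory element (TCACNCCAC or GTGGNGTGA, where N is any base).
Hmgcs1 (chr13:119690101-119690400, + strand): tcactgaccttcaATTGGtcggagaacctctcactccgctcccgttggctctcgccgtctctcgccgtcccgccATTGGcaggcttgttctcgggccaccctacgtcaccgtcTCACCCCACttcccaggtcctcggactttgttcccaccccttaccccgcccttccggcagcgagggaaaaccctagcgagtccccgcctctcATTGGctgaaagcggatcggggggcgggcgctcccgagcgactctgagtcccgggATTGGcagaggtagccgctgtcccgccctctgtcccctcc
Mvd (chr8:122443373-122443672, - strand): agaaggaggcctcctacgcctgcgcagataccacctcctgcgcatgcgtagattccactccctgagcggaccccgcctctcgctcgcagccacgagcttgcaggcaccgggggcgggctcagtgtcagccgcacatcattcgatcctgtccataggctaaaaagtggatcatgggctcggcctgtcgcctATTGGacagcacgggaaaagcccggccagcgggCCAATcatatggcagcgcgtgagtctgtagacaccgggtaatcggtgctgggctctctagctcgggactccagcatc
Idi1 (chr13:8885356-8885655, + strand): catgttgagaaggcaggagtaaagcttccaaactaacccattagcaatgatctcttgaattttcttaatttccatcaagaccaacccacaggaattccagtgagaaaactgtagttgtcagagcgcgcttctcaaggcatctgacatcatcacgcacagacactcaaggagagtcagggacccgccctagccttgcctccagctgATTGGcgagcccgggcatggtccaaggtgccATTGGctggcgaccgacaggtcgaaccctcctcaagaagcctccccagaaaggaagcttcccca
Cyp51 (chr5:4104648-4104947, - strand): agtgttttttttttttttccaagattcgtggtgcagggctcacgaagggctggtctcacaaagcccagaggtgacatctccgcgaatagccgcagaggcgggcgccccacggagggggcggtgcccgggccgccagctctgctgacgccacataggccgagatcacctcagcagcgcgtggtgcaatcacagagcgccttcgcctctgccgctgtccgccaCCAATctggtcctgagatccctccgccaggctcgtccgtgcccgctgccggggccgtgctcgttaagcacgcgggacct
Msmo1 (chr8:64733529-64733828, - strand): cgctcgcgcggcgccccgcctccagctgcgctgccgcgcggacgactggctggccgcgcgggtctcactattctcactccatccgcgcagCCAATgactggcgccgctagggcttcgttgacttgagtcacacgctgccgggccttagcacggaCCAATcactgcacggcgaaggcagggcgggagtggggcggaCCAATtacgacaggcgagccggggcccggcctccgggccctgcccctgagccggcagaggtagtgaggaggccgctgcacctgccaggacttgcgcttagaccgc

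RefSeq promoters were matched for 23 of the 29 members; Fdps, Fdft1, Sqle, Scd1, Scd2 and Stard4 are named only. RefSeq lists 31 promoters for these 23, since Pmvk and Scap have 2 starts each and Dhcr7, Insig2 and Srebf1 3 each. A CCAAT box, on either strand, stood in 21 of the 31, against 37.4% of all 32851 promoters of this length; 20 of the 23 members had it in 1 promoter or more. The sterol regulatory element stood in 1 of the 31, that of Hmgcs1, against 1.24% of all promoters. The E-box CACGTG stood in 6 of the 31 (Hsd17b7, Sc5d, Dhcr7, Insig1 and Scap), against 7.15% of all promoters. The 2 Scap promoters overlap and share the same E-box, which is counted in both. These are matches of letters, and binding was not tested.

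Bulk libraries held 51939301 to 73361005 reads counted to genes. The 44986 single cells gave 7391763 to 34819434 UMIs per mouse, and 1009 of 43973 distinct barcodes occurred in more than 1 pool. The authors' annotation divides the cells into 33 clusters, of which clusters 28 to 33 hold the same cells as their 6 neutrophil states, and divides 6570 T cells into 9 states. UMIs were summed per mouse and cluster, and a level is given in CPM, the count scaled to a common library total. Names that end in -like are rebuilt here from marker genes. Clusters 15, 16 and 25 are macrophage-like (C1qa, C1qb and C1qc in each, with Gpnmb and Trem2 among the leading genes of cluster 25 and Arg1 among those of cluster 16), cluster 26 is alveolar macrophage-like (Chil3, Ear2, Marco), clusters 21 and 23 are tumour-like (Krt8, Krt18, Krt19 and Cdh1 in both, Epcam in cluster 21 only) and cluster 24 mixes alveolar type 2 and airway markers. Clusters 14, 22 and 27 stayed unnamed. Cluster 14 also held C1qa, C1qb and C1qc, beside dendritic and alveolar macrophage markers, and was left out of the macrophage-like cells. Of the 8 macrophage markers cluster 15 held 7, cluster 25 held 6 and clusters 14 and 16 held the same 3 each. Cluster 22, with 95 cells, held Krt8, Krt18, Krt19 and Cdh1, 4 of 8 tumour epithelial markers as in cluster 23, and was left out of the tumour-like cells.

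In vehicle mice the highest level of a member lay most often in cluster 24, the alveolar type 2 and airway-like cells. This cluster held the highest mean level of 7 of the 29 members over the clusters that could be ranked, among them all 5 fatty acid genes. Scd1, which desaturates stearate, averaged 2660.1 CPM in cluster 24 and 9.34 CPM in the median cluster. Fasn, the fatty acid synthase, averaged 394 CPM there and 11.9 CPM in the median cluster. Srebf1, the regulator of these genes, was also highest there, at 73.8 CPM against a median of 17.98 CPM. Cluster 24 rests on 2 vehicle mice with 10 or more of these cells. Clusters were made from these same cells and genes, so the order of levels is a description with no test. The CPM total covers only genes that passed the filter, 1434 in cluster 4 and 9936 in cluster 23, so clusters do not share a common scale. With counts scaled to all UMIs instead, the highest cluster was another one only for Tm7sf2, Ebp, Sc5d and Dhcr7.

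Sterol genes were spread differently. Tumour-like cluster 23 held the highest level of 5 members: Mvk, Fdps, Sqle, Msmo1 and Acat2. Fdps, which makes farnesyl diphosphate for sterols and for protein prenylation, averaged 210.4 CPM in cluster 23 and 178 CPM in cluster 4, which is led by immunoglobulin genes and also holds plasmacytoid dendritic markers, against a median of 44.6 CPM over clusters. Fibroblast-like cluster 20 was highest for Hmgcs1, Fdft1, Cyp51 and Hsd17b7. Idi1, the isomerase of the isoprene units, averaged 160.2 CPM in the mature dendritic-like cluster 17, against a median of 15.5 CPM. Pmvk, a mevalonate pathway kinase, was highest in neutrophil cluster 28 at 249 CPM. Neutrophil cluster 31 or 33 held the lowest level of 17 members, among them Hmgcs1, Fdft1, Sqle and Lss. Fdft1, Sqle and Lss stood at 0 CPM there, and clusters at 0 cannot be ranked. Cells of cluster 33 were shallow, with medians of 760 to 814.5 UMIs per cell in vehicle mice.

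**Figure D1:**
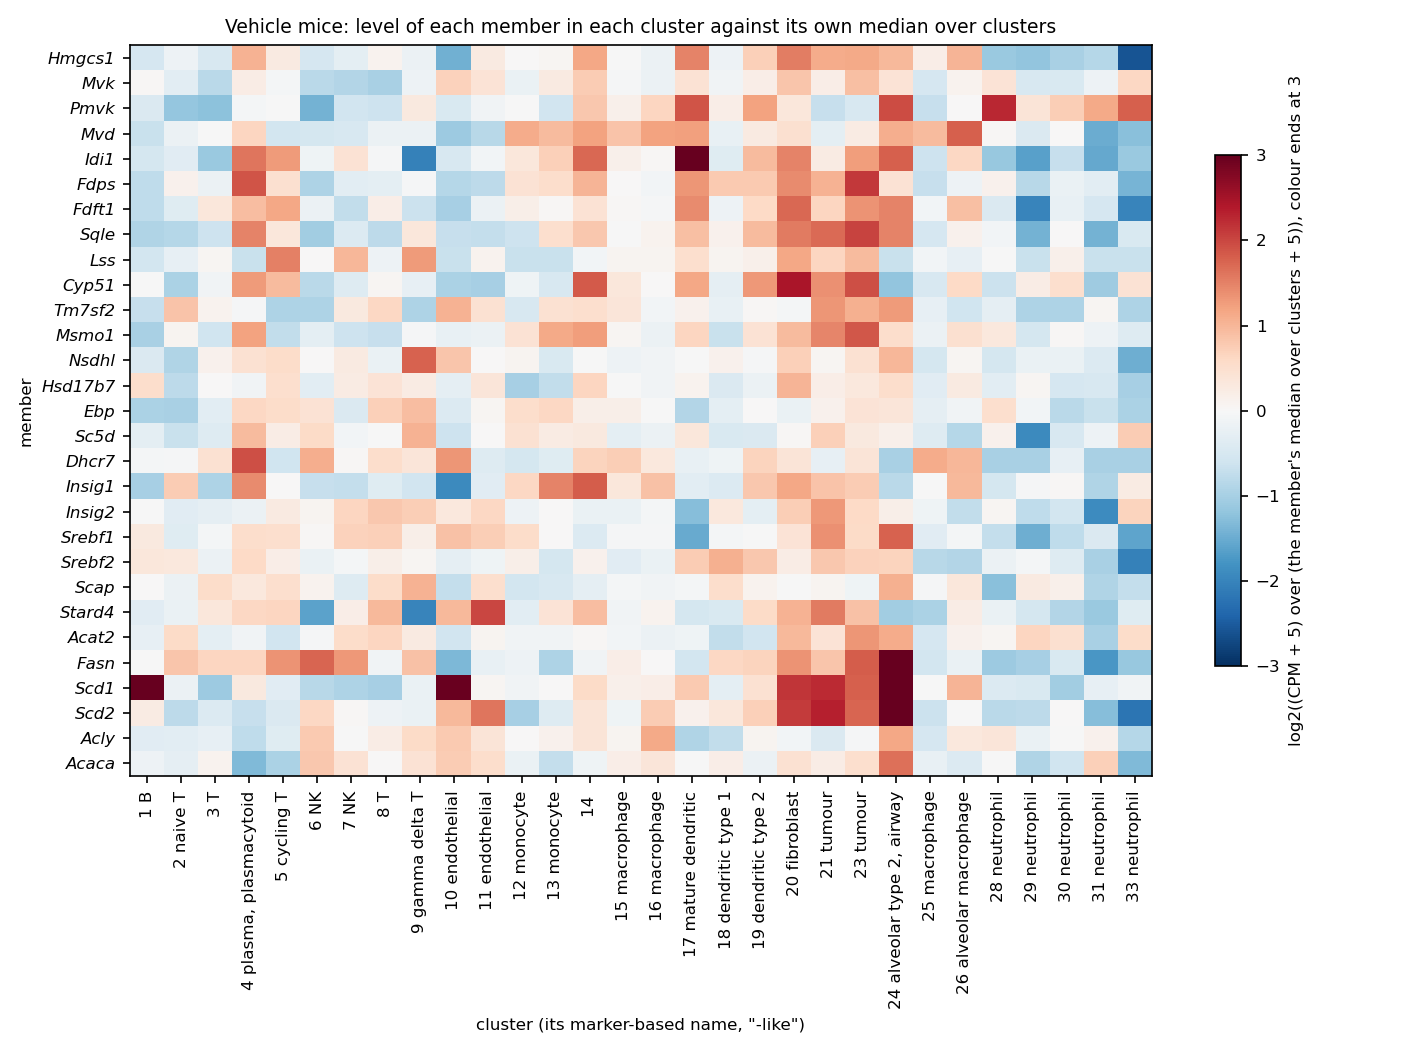
Level of each of the 29 members (rows) in each cluster (columns) of vehicle mice, as log2 of the mean CPM plus 5 over the member's own median over clusters plus 5; colour ends at 3, and clusters 22, 27 and 32 are left out for few UMIs. The fatty acid genes are highest in cluster 24, and Idi1 in cluster 17.

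SHP099 was compared with vehicle in the macrophage-like cells of clusters 15, 16 and 25, summed. There 6 enzymes of cholesterol synthesis were higher after SHP099: Hmgcs1, Mvd and Idi1 of the mevalonate branch, and Cyp51, Msmo1 and Dhcr7 of the branch from squalene to cholesterol. Each gene was tested with edgeR's quasi-likelihood test, with Benjamini-Hochberg adjustment over all genes tested in those cells, and called at an adjusted p below 0.05; ± after a log2 fold change is its standard error (SE). The rises lay between 0.61 and 1.32 on the log2 scale. Pmvk, a kinase of the mevalonate branch, and Acly, which supplies acetyl-CoA from citrate, fell. All 29 members passed the filter on low counts here, and the 8 called stood against 18% of all 10862 genes tested (9.55% called higher and 8.48% called lower). The median log2 fold change was 0.24 over the 29 members and -0.001 over all genes.

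Hmgcs1, which makes the precursor of mevalonate, stood at 66.2, 39.5 and 57.2 CPM in the SHP099 mice, against 30.1, 28.3 and 29.3 CPM in the vehicle mice, a log2 change of 0.88 ± 0.15 (SE; adjusted p = 0.00120). Mvd, which decarboxylates mevalonate diphosphate, stood at 48.9, 38.4 and 51.1 CPM after SHP099, against 22.2, 25.9 and 20.7 CPM after vehicle, a change of 1.00 ± 0.14 (SE; adjusted p = 3.28e-04). Every SHP099 mouse lay above every vehicle mouse for both. Idi1 stood at 22.1, 19.5 and 25.2 CPM after SHP099, against 13.3, 13.5 and 13.97 CPM after vehicle, a change of 0.70 ± 0.14 (SE; adjusted p = 0.00417). Cyp51, the lanosterol demethylase, stood at 32.8, 22.5 and 30.7 CPM after SHP099, against 13.8, 17.4 and 17.4 CPM after vehicle, a change of 0.82 ± 0.18 (SE; adjusted p = 0.00487). For neither gene did the groups overlap. Msmo1, a sterol methyl oxidase, stood at 37.6, 28.7 and 44.97 CPM after SHP099, against 21.9, 25.9 and 24.5 CPM after vehicle, a change of 0.61 ± 0.14 (SE; adjusted p = 0.00741). Dhcr7, a reductase of the last steps to cholesterol, stood at 26.9, 25.6 and 24.5 CPM after SHP099, against 8.55, 13.3 and 9.48 CPM after vehicle, a change of 1.32 ± 0.23 (SE; adjusted p = 0.00132). The SHP099 mice again lay above every vehicle mouse for both. These 6 calls held when any 1 of the 12 mice was left out.

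The regulators of the pathway were not called. Srebf2 stood at 35.2, 33.3 and 34.7 CPM in SHP099 mice, against 26.9, 32.5 and 28.3 CPM in vehicle mice, with a log2 change of 0.24 ± 0.12 (SE; adjusted p = 0.204). Srebf1 stood at 15.5, 14.9 and 16.4 CPM after SHP099, against 15.3, 15.2 and 15.3 CPM after vehicle (log2 fold change 0.02 ± 0.16 SE, adjusted p = 0.956). Insig1, itself a target of SREBP, stood at 33.4, 28.7 and 42.9 CPM after SHP099, against 27.8, 28.7 and 31.2 CPM after vehicle (log2 fold change 0.25 ± 0.14 SE, adjusted p = 0.237). The Srebf2 groups did not overlap, and those of Srebf1 and Insig1 did. Nor was Sqle, the squalene epoxidase, called, at 8.95, 7.17 and 14.99 CPM after SHP099, against 6.84, 8.69 and 5.69 CPM after vehicle (log2 fold change 0.53 ± 0.30 SE, adjusted p = 0.261). Among the fatty acid genes, Fasn stood at 13.7, 9.74 and 10.9 CPM after SHP099, against 8.44, 11.5 and 11.9 CPM after vehicle, Scd1 at 11.3, 5.12 and 13.6 CPM, against 7.98, 11.3 and 11.6 CPM, and Scd2 at 28.1, 25.1 and 38.2 CPM, against 31.2, 28.1 and 47.2 CPM. Their log2 fold changes of 0.12 ± 0.24, -0.06 ± 0.31 and -0.24 ± 0.23 (SE) were not called (adjusted p = 0.773, 0.928 and 0.521). Acly stood at 60.9, 58.4 and 55.9 CPM after SHP099, against 99.7, 81 and 92.2 CPM after vehicle (log2 fold change -0.64 ± 0.18 SE, adjusted p = 0.0232), and Pmvk at 38.8, 35.4 and 43.6 CPM, against 57.2, 49.9 and 54.7 CPM (log2 fold change -0.47 ± 0.14 SE, adjusted p = 0.0357). The Acly call was lost without SHP099 mice 1, 2 or 3 or vehicle mice 1 or 3 (adjusted p between 0.0540 and 0.0838). That of Pmvk was lost without SHP099 mice 1, 2 or 3 or vehicle mice 1 or 3 (adjusted p between 0.0509 and 0.126).

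**Figure D2:**
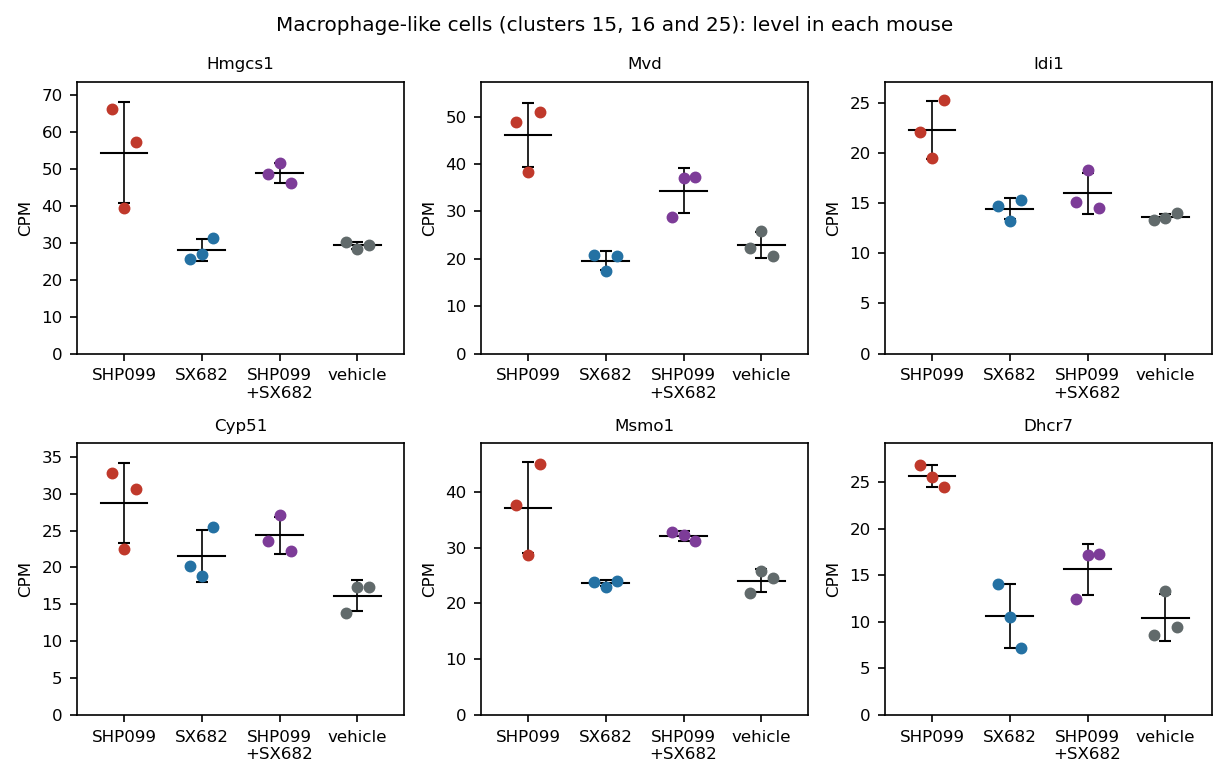
CPM of 6 sterol synthesis genes in macrophage-like cells (clusters 15, 16 and 25), 1 point for each mouse, with the mean (wide line) and SD (error bar) of 3 mice for each treatment. The SHP099 mice lie above every vehicle mouse in each panel, and for Hmgcs1 the SX682 mice lie between 25.6 and 31.3 CPM, the vehicle mice between 28.3 and 30.1 CPM.

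The 3 macrophage-like clusters were not present in the same proportions in the 2 groups. Cluster 16 made up 1.25% to 8.50% of these cells in SHP099 mice, against 29.8% to 45.4% in vehicle mice, and cluster 25 made up 48.5% to 65.6%, against 31.4% to 32.7%. The comparison was therefore repeated within cluster 25. Of its 24 members tested, 5 were higher after SHP099 and none lower: Mvd, Idi1, Cyp51, Msmo1 and Dhcr7. The share called stood beside 6.69% of 8530 genes called in either direction (3.95% called higher). The median log2 fold change was 0.54 over the 24 members and -0.01 over all genes. The other 5 members, Lss, Tm7sf2, Hsd17b7, Mvk and Acat2, did not pass the filter on low counts.

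Mvd stood at 62.8, 45.5 and 50.98 CPM in the cluster 25 cells of SHP099 mice, against 21.9, 26.7 and 18.5 CPM in those of vehicle mice (log2 fold change 1.26 ± 0.18 SE, adjusted p = 4.95e-04). Cyp51 stood at 29.6, 21.7 and 31.7 CPM after SHP099, against 11.7, 11.96 and 8.58 CPM after vehicle (log2 fold change 1.35 ± 0.28 SE, adjusted p = 0.00687), from 87 UMIs against 61. Neither gene's groups overlapped, and both calls held without any 1 of the 12 mice. Idi1 stood at 15.3, 21.7 and 20.2 CPM after SHP099, against 8.32, 9.14 and 7.92 CPM after vehicle (log2 fold change 1.16 ± 0.30 SE, adjusted p = 0.0256). Dhcr7 stood at 33.2, 40.3 and 29.8 CPM after SHP099, against 13.6, 19.7 and 15.2 CPM after vehicle (log2 fold change 1.12 ± 0.23 SE, adjusted p = 0.00712). Msmo1 stood at 38.6, 30 and 46.2 CPM after SHP099, against 24.2, 24.6 and 21.8 CPM after vehicle (log2 fold change 0.70 ± 0.19 SE, adjusted p = 0.0386). These groups did not overlap either. The Idi1 call was lost without SHP099 mice 2 or 3 or vehicle mice 1, 2 or 3 (adjusted p between 0.0598 and 0.103). That of Msmo1 was lost without SHP099 mice 1 or 3 or vehicle mice 1, 2 or 3 (adjusted p between 0.0797 and 0.167). That of Dhcr7 was lost without vehicle mouse 1 (adjusted p = 0.0551). DESeq2 did not call Msmo1 (adjusted p = 0.0862). Hmgcs1 stood at 74.5, 40.3 and 56.8 CPM after SHP099, against 43.1, 33.1 and 31.03 CPM after vehicle, groups that overlapped (log2 fold change 0.66 ± 0.19 SE, adjusted p = 0.05001). Acly, lower in the 3 clusters together, stood at 45.8, 45.5 and 45.2 CPM after SHP099, against 42.7, 46.4 and 44.9 CPM after vehicle within cluster 25 (log2 fold change 0.03 ± 0.15 SE, adjusted p = 0.951). In cluster 16 of vehicle mice Acly averaged 149.7 ± 15.3 CPM (SD, n = 3).

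Cluster 15 had 1 call among 25 members tested, against 4.7% of 8850 genes. This was Hmgcs1, at 55.6, 45.9 and 52.8 CPM after SHP099, against 30.6, 31.3 and 28.1 CPM after vehicle (log2 fold change 0.75 ± 0.18 SE, adjusted p = 0.0261), with no overlap. It was lost without SHP099 mice 1, 2 or 3 or vehicle mice 1, 2 or 3 (adjusted p between 0.0554 and 0.0828). Mvd, with a log2 change of 0.80 ± 0.23 (SE; adjusted p = 0.0625), did not pass there. Cluster 16 held 32 cells in all SHP099 mice and 2 mice with 10 or more of them, and none of its 26 members tested was called, against 0.323% of genes, with 3 at an unadjusted p below 0.05. Neutrophil markers summed to 881 to 1861 CPM in cluster 25 of SHP099 mice, against 611 to 1056 CPM in vehicle mice, with all 7 markers counted in both. Tumour epithelial markers summed to 31.7 to 78.6 CPM after SHP099 (Krt7, Cldn4 and Cldn7 at 0 of 8), against 169.7 to 242 CPM after vehicle (Cldn4 at 0 of 8). Among cells with at most 2 tumour epithelial marker UMIs, a setting chosen after seeing the data, all 5 calls in cluster 25 stood, with log2 fold changes between 0.74 and 1.36. With the same limit on alveolar type 2 marker UMIs Mvd, Cyp51 and Dhcr7 stood (log2 fold changes of 1.34, 1.33 and 1.14). Idi1 had a change of 0.99 (adjusted p = 0.108) and Msmo1 one of 0.66 (adjusted p = 0.0936), neither called.

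In alveolar macrophage-like cells (cluster 26) SHP099 raised Fdps and Srebf2, and no member was called lower. The 2 calls among 25 members tested stood beside 8.75% of 7681 genes called in either direction. The log2 fold changes of the 25 had a median of 0.52, against 0.01 over all genes, and 21 of them were above 0. Fdps stood at 140.1, 62.95 and 90.4 CPM after SHP099, against 55.7, 39.04 and 22.9 CPM after vehicle (log2 fold change 1.24 ± 0.31 SE, adjusted p = 0.0127). Srebf2 stood at 47.8, 35.3 and 48.2 CPM after SHP099, against 16.6, 22.2 and 22.9 CPM after vehicle (log2 fold change 1.13 ± 0.27 SE, adjusted p = 0.00814). Each SHP099 mouse was above each vehicle mouse for both genes. The Fdps call was lost without SHP099 mouse 1 or vehicle mice 2 or 3 (adjusted p between 0.0563 and 0.199). That of Srebf2 was lost without SHP099 mouse 1 or vehicle mouse 1 (adjusted p between 0.0624 and 0.0757). Cyp51, at 59.7, 37.6 and 66.3 CPM after SHP099, against 30.5, 28.5 and 25.2 CPM after vehicle (log2 fold change 0.90 ± 0.29 SE, adjusted p = 0.0634), and Hmgcs1, at 125, 71.8 and 165 CPM, against 87.98, 44.3 and 68.8 CPM (log2 fold change 0.78 ± 0.27 SE, adjusted p = 0.0746), did not pass. Mvd and Dhcr7, called in cluster 25, had log2 fold changes of 0.40 ± 0.18 (SE; adjusted p = 0.216) and 0.55 ± 0.34 (SE; adjusted p = 0.378) and were not called here. Cells of cluster 26 were deeper in SHP099 mice, with medians of 4366 to 5397 UMIs per cell, against 2355 to 2972 in vehicle mice. Combination mice had medians of 2169 to 3481 there. In cluster 25 the medians were 7801 to 9083 after SHP099, against 5621.5 to 6279.5 after vehicle. The part of depth per cell in these results was not tested.

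The combination gave 4 calls in cluster 26 among the same 25 members, all higher than in vehicle mice, against 7.95% of genes: Hmgcs1, Idi1, Fdps and Cyp51. Fdps stood at 80.7, 94.4 and 165 CPM in combination mice, against 55.7, 39.04 and 22.9 CPM in vehicle mice (log2 fold change 1.35 ± 0.29 SE, adjusted p = 0.00507), a call that held without any 1 mouse. Idi1 stood at 48.4, 64.1 and 79.6 CPM after the combination, against 30.5, 21.1 and 27.5 CPM after vehicle (log2 fold change 1.25 ± 0.30 SE, adjusted p = 0.0111). Hmgcs1 stood at 94.2, 146 and 157 CPM after the combination, against 87.98, 44.3 and 68.8 CPM after vehicle (log2 fold change 0.96 ± 0.25 SE, adjusted p = 0.0191). No combination mouse overlapped a vehicle mouse for these genes. Cyp51 stood at 33.6, 60.7 and 72.3 CPM after the combination, against 30.5, 28.5 and 25.2 CPM after vehicle (log2 fold change 0.92 ± 0.28 SE, adjusted p = 0.0410), likewise without overlap. The Idi1 call was lost without vehicle mouse 2 (adjusted p = 0.0819). That of Hmgcs1 was lost without combination mice 2 or 3 or vehicle mice 2 or 3 (adjusted p between 0.0544 and 0.163). That of Cyp51 was lost without SHP099 mouse 3, SX682 mouse 3, combination mice 2 or 3 or vehicle mice 1, 2 or 3 (adjusted p between 0.0501 and 0.176). Neutrophil markers summed to 1008 to 1703 CPM in cluster 26 of combination mice, against 830.4 to 1014 CPM in vehicle mice, while Fdps in neutrophils themselves was at 16.3, 18.4 and 21.8 CPM after the combination. Tumour epithelial markers summed to 309.7 to 609 CPM after the combination (all 8 counted), against 219 to 263 CPM after vehicle (Cldn4 at 0). Among cells with at most 2 of those UMIs Fdps had a log2 fold change of 1.41, Idi1 1.24, Hmgcs1 1.02 and Cyp51 0.95, all still called.

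The same comparison in the macrophage-like clusters 15, 16 and 25 together gave 3 calls among 29 members after the combination, all higher, against 11.4% of genes. They were Hmgcs1, Mvd and Cyp51. Hmgcs1 stood at 48.6, 51.7 and 46.2 CPM in combination mice, against 30.1, 28.3 and 29.3 CPM in vehicle mice (log2 fold change 0.74 ± 0.15 SE, adjusted p = 0.00563). Mvd stood at 28.9, 37.01 and 37.3 CPM after the combination, against 22.2, 25.9 and 20.7 CPM after vehicle (log2 fold change 0.60 ± 0.15 SE, adjusted p = 0.0152). Cyp51 stood at 23.6, 27.1 and 22.3 CPM after the combination, against 13.8, 17.4 and 17.4 CPM after vehicle (log2 fold change 0.61 ± 0.17 SE, adjusted p = 0.0350). None of these 3 had overlapping groups. The Mvd call was lost without combination mice 2 or 3 or vehicle mice 1 or 3 (adjusted p between 0.0559 and 0.0956). That of Cyp51 was lost without combination mice 1, 2 or 3 or vehicle mice 1 or 2 (adjusted p between 0.0548 and 0.194). Within cluster 25 Mvd was the only call of 24, against 5.38% of genes, at 37.8, 47.3 and 49.4 CPM after the combination, against 21.9, 26.7 and 18.5 CPM after vehicle (log2 fold change 1.02 ± 0.19 SE, adjusted p = 0.00335), and it held without any 1 mouse. Cluster 16 made up 2.46% to 7.29% of the macrophage-like cells of combination mice.

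Cluster 14, outside these cells but with C1q genes among its markers, had no call among 12 members tested after SHP099, against 4.41% of 3696 genes, with 0 at an unadjusted p below 0.05 and 0 called by DESeq2. Of their log2 fold changes 4 were above 0 and 8 below, with a median of -0.11.

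SX682 alone gave no call among the 29 members in macrophage-like cells together (1.24% of all genes were called), the 24 tested in cluster 25 (0.422%) or the 25 tested in cluster 26 (0.885%). At an unadjusted p below 0.05 there were 3, 1 and 0, and the DESeq2 Wald test called 0, 0 and 0. In macrophage-like cells Mvd stood at 20.9, 17.4 and 20.6 CPM after SX682, against 22.2, 25.9 and 20.7 CPM after vehicle (log2 fold change -0.22 ± 0.14 SE, adjusted p = 0.671). Hmgcs1 stood at 25.6, 26.95 and 31.3 CPM after SX682, against 30.1, 28.3 and 29.3 CPM after vehicle (log2 fold change -0.07 ± 0.14 SE, adjusted p = 0.945). The 3 drug groups share the vehicle mice as their reference.

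The combination was also set against SX682, which sets SHP099 with SX682 beside SX682 alone, with the vehicle mice not used as the reference. They still entered the fit, through the filter, the scaling and the shared estimate of the spread. In cluster 25, 5 of 24 members were higher after the combination and none lower: Hmgcs1, Mvd, Msmo1, Fasn and Acly, against 7.75% of genes in either direction. Hmgcs1 stood at 51.3, 58.6 and 51.3 CPM after the combination, against 26.8, 26.2 and 29.4 CPM after SX682 (log2 fold change 0.98 ± 0.20 SE, adjusted p = 0.00445). Mvd stood at 37.8, 47.3 and 49.4 CPM after the combination, against 23.2, 18.7 and 23.4 CPM after SX682 (log2 fold change 1.07 ± 0.19 SE, adjusted p = 0.00135). Both calls held without any 1 mouse, and both pairs of groups were apart. Fasn stood at 9.44, 13.98 and 12.6 CPM after the combination, against 4.63, 5.86 and 3.60 CPM after SX682 (log2 fold change 1.34 ± 0.33 SE, adjusted p = 0.0165), from 41 UMIs against 30. Msmo1 differed by 0.72 ± 0.20 (SE; adjusted p = 0.0313) and Acly by 0.49 ± 0.14 (SE; adjusted p = 0.0460). The Fasn call was lost without SX682 mouse 3 or combination mice 2 or 3 (adjusted p between 0.0580 and 0.121). That of Msmo1 was lost without SX682 mice 2 or 3 or combination mice 2 or 3 (adjusted p between 0.0604 and 0.194). That of Acly was lost without SHP099 mice 1, 2 or 3, SX682 mice 1 or 2, combination mice 1 or 3 or vehicle mice 1, 2 or 3 (adjusted p between 0.0529 and 0.223). In the 3 macrophage-like clusters together Hmgcs1 (log2 fold change 0.81 ± 0.15 SE, adjusted p = 0.00410) and Mvd (log2 fold change 0.83 ± 0.15 SE, adjusted p = 0.00299) were higher, 2 of 29 members against 8.43% of genes, and both held without any 1 mouse. Neutrophil markers in cluster 25 summed to 1041 to 2335 CPM after the combination, against 221 to 712 CPM after SX682, with all 7 counted in both, and their part in these differences was not tested.

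In cluster 26 the combination was higher than SX682 for 3 of 25 members (Hmgcs1, Idi1 and Fdps), against 8.97% of genes. Idi1 stood at 48.4, 64.1 and 79.6 CPM after the combination, against 43.9, 23.5 and 14.4 CPM after SX682 (log2 fold change 1.14 ± 0.28 SE, adjusted p = 0.0128), and Hmgcs1 differed by 0.80 ± 0.24 (SE; adjusted p = 0.0388) and Fdps by 0.88 ± 0.27 (SE; adjusted p = 0.0430). The Idi1 call was lost without SX682 mice 2 or 3 or combination mouse 2 (adjusted p between 0.0528 and 0.132). That of Hmgcs1 was lost without SX682 mice 1, 2 or 3, combination mice 2 or 3 or vehicle mouse 3 (adjusted p between 0.0513 and 0.229). That of Fdps was lost without SHP099 mouse 3, SX682 mice 1, 2 or 3, combination mice 2 or 3 or vehicle mouse 2 (adjusted p between 0.0553 and 0.196). Against SHP099 alone, the combination changed no member in cluster 25 (0.0586% of genes called), in cluster 26 (0.195%) or in the 3 macrophage-like clusters together (0.0921%), with 1, 1 and 5 members at an unadjusted p below 0.05 and 0, 0 and 0 called by DESeq2. In those clusters together Dhcr7 stood at 12.5, 17.2 and 17.3 CPM after the combination, against 26.9, 25.6 and 24.5 CPM after SHP099, a difference of -0.69 ± 0.25 (SE; adjusted p = 0.335) that was not called. No member passed the test of a non-additive effect of the 2 drugs in these cells (0.957% of genes called in the 3 clusters together).

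Tumour-like cells (clusters 21 and 23 together) had 4 members higher after SHP099 and none lower: Idi1, Fdps, Srebf2 and Scap, the SREBP escort. All 29 were tested, and 13.5% of 10993 genes were called in either direction, so the share of members called stood at the background. Fdps stood at 251, 221 and 246 CPM after SHP099, against 171, 164 and 164 CPM after vehicle (log2 fold change 0.53 ± 0.08 SE, adjusted p = 9.26e-04), and its call held without any 1 mouse. Idi1 stood at 49.5, 51.5 and 52.9 CPM after SHP099, against 37.4, 35.1 and 30.2 CPM after vehicle (log2 fold change 0.58 ± 0.14 SE, adjusted p = 0.0184). Srebf2 stood at 98.1, 92.5 and 85.2 CPM after SHP099, against 73.02, 73.9 and 71.1 CPM after vehicle (log2 fold change 0.34 ± 0.09 SE, adjusted p = 0.0254). The SHP099 mice lay above the vehicle mice for all 3. Scap stood at 20.8, 21.5 and 16.2 CPM after SHP099, against 13.4, 14.8 and 10.99 CPM after vehicle (log2 fold change 0.58 ± 0.18 SE, adjusted p = 0.0447), again without overlap. The Idi1 call was lost without SHP099 mice 2 or 3 or vehicle mouse 3 (adjusted p between 0.0569 and 0.0660). That of Srebf2 was lost without SHP099 mice 1 or 2 or vehicle mice 1, 2 or 3 (adjusted p between 0.0616 and 0.0820). That of Scap was lost without SHP099 mice 1 or 2, SX682 mice 1, 2 or 3, combination mouse 2 or vehicle mice 1 or 3 (adjusted p between 0.0510 and 0.202). Macrophage markers in cluster 23 summed to 58.4 to 76.5 CPM after SHP099, against 423 to 452 CPM after vehicle, with all 8 counted in both groups. Neutrophil markers over the tumour-like cells summed to 1170.3 to 2923 CPM after SHP099, against 2619.7 to 4110.3 CPM after vehicle, with all 7 counted. The part of these other cells in the tumour-like results was not tested. Cluster 23 made up 60.3% to 75% of the tumour-like cells of SHP099 mice, against 34.7% to 53.5% in vehicle mice. Tumour-like cells had medians of 12854.5 to 16020 UMIs per cell after SHP099, against 9998 to 10517 after vehicle. The part of this depth was not tested.

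The remaining tumour values that the naming rule covers were not called. Hmgcs1 stood at 108, 89.9 and 78.1 CPM after SHP099, against 80.7, 69.3 and 67.3 CPM after vehicle (log2 fold change 0.34 ± 0.13 SE, adjusted p = 0.105). Sqle stood at 61.6, 54.1 and 44.9 CPM, against 51.9, 42.3 and 39.9 CPM (log2 fold change 0.25 ± 0.17 SE, adjusted p = 0.349), and Insig1 at 32.1, 42.98 and 37.7 CPM, against 44.6, 32.98 and 36.02 CPM (log2 fold change -0.01 ± 0.16 SE, adjusted p = 0.987). Srebf1 stood at 42.5, 37.8 and 36.8 CPM, against 34.2, 39.3 and 42.8 CPM (log2 fold change 0.01 ± 0.14 SE, adjusted p = 0.975). The groups overlapped for each of these 4. Fasn stood at 39.05, 52.8 and 52.05 CPM after SHP099, against 48.5, 37.3 and 42.5 CPM after vehicle (log2 fold change 0.17 ± 0.15 SE, adjusted p = 0.521), Scd1 at 52.9, 59.3 and 44.9 CPM, against 46.2, 49.3 and 59.1 CPM (log2 fold change 0.04 ± 0.16 SE, adjusted p = 0.923), and Scd2 at 176, 139 and 136 CPM, against 135, 135 and 134 CPM (log2 fold change 0.16 ± 0.17 SE, adjusted p = 0.574). The Scd2 groups did not overlap, and those of Fasn and Scd1 did. Within cluster 23 Srebf2 (log2 fold change 0.43 ± 0.10 SE, adjusted p = 0.0105) and Scap (log2 fold change 0.64 ± 0.20 SE, adjusted p = 0.0424) were higher and Mvk, the mevalonate kinase, was lower (log2 fold change -0.62 ± 0.19 SE, adjusted p = 0.0418), 3 of 29 members against 13.6% of genes. The Srebf2 call in cluster 23 held without any 1 mouse. The Scap call was lost without SHP099 mice 1 or 2, SX682 mouse 2 or vehicle mice 1, 2 or 3 (adjusted p between 0.0530 and 0.174). That of Mvk was lost without SHP099 mice 2 or 3 or vehicle mice 1 or 3 (adjusted p between 0.0721 and 0.167). Within cluster 21 Stard4, a carrier of cholesterol between membranes, was higher (log2 fold change 0.81 ± 0.22 SE, adjusted p = 0.0354), 1 of 27 members against 5.56% of genes, and was lost without SHP099 mice 1, 2 or 3, combination mice 2 or 3 or vehicle mice 1 or 3 (adjusted p between 0.0508 and 0.156).

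For Fdps the effects of the 2 drugs did not add in tumour-like cells. SX682 alone raised it to 243, 224 and 242 CPM, against 171, 164 and 164 CPM after vehicle (log2 fold change 0.51 ± 0.08 SE, adjusted p = 0.0202), the single call among 29 members (0.364% of genes). The combination left it at 182, 187 and 188 CPM, a change from vehicle of 0.16 ± 0.08 (SE; adjusted p = 0.203). The combination was thus lower than SHP099 (log2 fold change -0.36 ± 0.08 SE, adjusted p = 0.0440) and lower than SX682 (log2 fold change -0.35 ± 0.08 SE, adjusted p = 0.0257), 1 call each among 29 members, against 1.57% and 3.75% of genes. The non-additive term, which is 0 when the log2 effects of the drugs add, was -0.87 ± 0.11 (SE; adjusted p = 0.0110), 1 of 29 members against 0.373% of genes, and it held without any 1 mouse. The SX682 call was lost without SX682 mice 1 or 3 or vehicle mice 1 or 2 (adjusted p between 0.0669 and 0.140), the difference from SHP099 without SHP099 mice 1, 2 or 3, SX682 mouse 3, combination mice 1, 2 or 3 or vehicle mice 1 or 2 (adjusted p between 0.0508 and 0.119) and the difference from SX682 without SX682 mice 1 or 3 or combination mice 1, 2 or 3 (adjusted p between 0.0585 and 0.0852). In cluster 23 alone the term was -0.81 ± 0.18 (SE; adjusted p = 0.0419), and it was lost without SHP099 mice 1, 2 or 3, SX682 mice 2 or 3, combination mice 1, 2 or 3 or vehicle mice 1, 2 or 3 (adjusted p between 0.0501 and 0.118). Within cluster 23 Fdps stood at 310.0, 243 and 268 CPM after SHP099, 276, 274 and 363 CPM after SX682, 224, 217 and 231 CPM after the combination and 203, 190.0 and 238 CPM after vehicle; the changes from vehicle were not called there (adjusted p = 0.0569 for SHP099 and 0.0631 for SX682). In cluster 21 Fdps averaged 108 ± 19.5 CPM after SHP099, 123 ± 45.2 CPM after SX682, 114 ± 24.6 CPM after the combination and 97.5 ± 13.7 CPM after vehicle (SD, n = 3 each). Cluster 23, where Fdps is higher, made up 38.1% to 56.5% of tumour-like cells after SX682 and 39.5% to 62.1% after the combination; the part of these shares in the Fdps result was not tested. Combination against vehicle gave 2 calls among the 29 members in tumour-like cells, Acat2 higher (log2 fold change 0.50 ± 0.14 SE, adjusted p = 0.0411) and Mvk lower (log2 fold change -0.54 ± 0.16 SE, adjusted p = 0.0438), against 10.3% of genes; they were lost without SX682 mice 2 or 3, combination mice 1, 2 or 3 or vehicle mice 1, 2 or 3 (adjusted p up to 0.144), and without SX682 mice 1, 2 or 3, combination mice 1 or 3 or vehicle mice 1, 2 or 3 (adjusted p between 0.0506 and 0.151). In cluster 23 the combination had lower Mvk than vehicle (log2 fold change -0.53 ± 0.16 SE, adjusted p = 0.0485), lost without SHP099 mouse 2, SX682 mice 1, 2 or 3, combination mice 1, 2 or 3 or vehicle mice 1, 2 or 3 (adjusted p between 0.0511 and 0.185), and lower Mvd than SX682 (log2 fold change -0.95 ± 0.25 SE, adjusted p = 0.0398), lost without SX682 mice 1, 2 or 3, combination mice 1, 2 or 3 or vehicle mice 1, 2 or 3 (adjusted p between 0.0563 and 0.118).

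**Figure D3:**
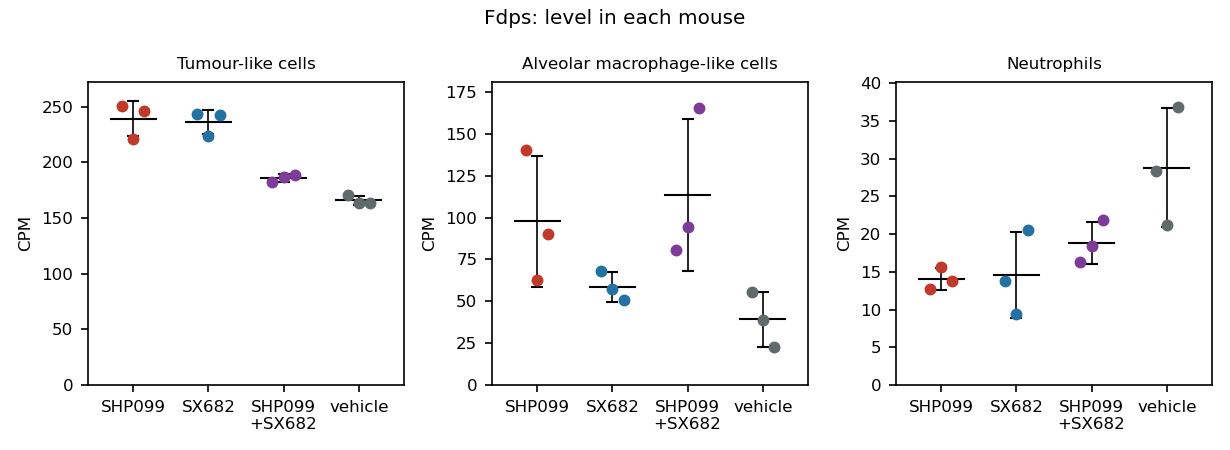
CPM of Fdps in tumour-like cells, alveolar macrophage-like cells and neutrophils, 1 point for each mouse, with the mean (wide line) and SD (error bar) for each treatment. In tumour-like cells the SHP099 and SX682 mice lie at 221 CPM or more, above every combination and vehicle mouse; in neutrophils every SHP099 mouse lies below every vehicle mouse.

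In the sorted Epcam+ cells sequenced in bulk, Scd1 was the only member of 29 called, and it was lower after SHP099. Over all genes 0.113% of 20314 were called. Scd1 stood at 188, 189 and 256 CPM in the SHP099 libraries, against 726, 543 and 663 CPM in the vehicle libraries, a log2 change of -1.61 ± 0.17 (SE; adjusted p = 0.0313). The groups did not overlap. The call was lost without SHP099 libraries 1 or 2 or vehicle libraries 1, 2 or 3 (adjusted p between 0.0567 and 0.176). The other members had log2 fold changes between -0.28 (Acaca, which makes malonyl-CoA) and 0.40 (Stard4). Stard4 stood at 91, 84.3 and 90.9 CPM after SHP099, against 71.7, 66.5 and 63.2 CPM after vehicle, without overlap (log2 fold change 0.40 ± 0.10 SE, adjusted p = 0.231). The median log2 fold change of the 29 members was -0.02, and that of all genes was -0.001. Fdps, higher after SHP099 in tumour-like single cells, had a log2 change of 0.12 ± 0.20 (SE; adjusted p = 0.891) in bulk, and Srebf2 of -0.15 ± 0.13 (SE; adjusted p = 0.771). The bulk cells were sorted on Epcam, which was among the markers of tumour-like cluster 21 but not of cluster 23. How far the sorted cells match the tumour-like single cells was not tested.

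Beside lower Scd1 the bulk SHP099 libraries had lower alveolar type 2 markers. The 8 markers, all counted in both groups, summed to 303 to 607 CPM in SHP099 libraries, against 3223 to 7179 CPM in vehicle libraries, and the part of these cells in the Scd1 result was not tested. The 8 tumour epithelial markers summed to 9341 to 12041 CPM in SHP099 libraries, against 11836 to 13592 CPM. The 8 macrophage markers, all counted, were also lower, at 255 to 397 CPM in SHP099 libraries, against 581 to 611 CPM in vehicle libraries, and their part was not tested either. In bulk, fewer cells of a type and less RNA per cell cannot be told apart. In tumour-like cells Scd1 stood at 52.9, 59.3 and 44.9 CPM after SHP099, 51.2, 46.6 and 61.8 CPM after SX682, 43.3, 60.7 and 53.9 CPM after the combination and 46.2, 49.3 and 59.1 CPM after vehicle. In cluster 24, the alveolar type 2 and airway-like cells, Scd1 stood at 6934 CPM in the 1 SHP099 mouse with 10 or more cells, at 3649.5 and 4419.6 CPM in 2 SX682 mice, at 5027, 6075 and 3611 CPM in 3 combination mice and at 2321 and 2999 CPM in 2 vehicle mice. No member was called in cluster 24 after SX682 or the combination (0.0988% and 0.079% of 5063 genes called, with 3 and 6 members at an unadjusted p below 0.05, and 0 and 0 by DESeq2), and SHP099 could not be tested there.

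**Figure D4:**
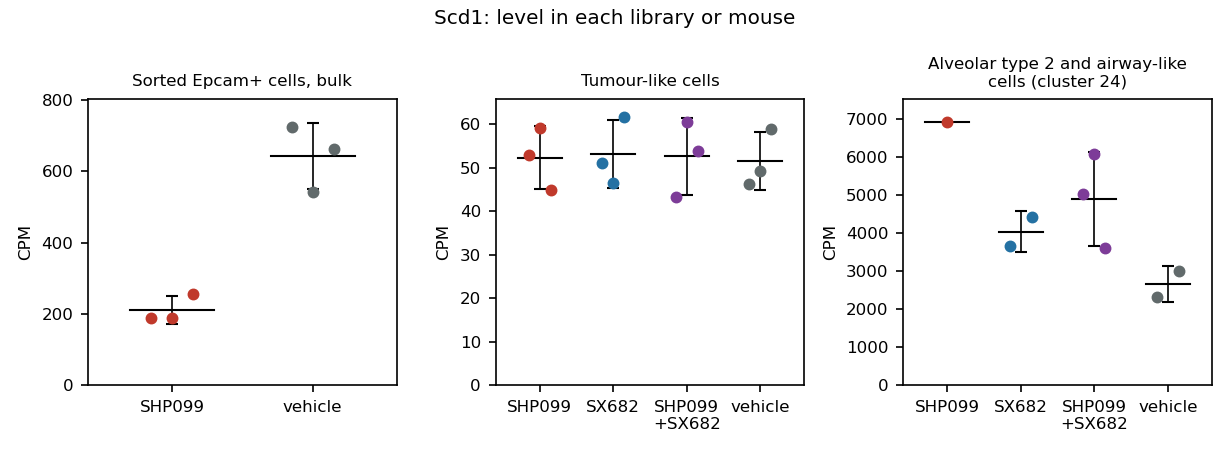
CPM of Scd1 in each bulk library of sorted Epcam+ cells, in tumour-like single cells and in cluster 24, 1 point for each library or mouse, with the mean (wide line) and SD (error bar, where 2 or more). The bulk groups do not overlap, the 4 treatments overlap in tumour-like cells, and cluster 24 has its own, much higher scale.

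Outside those cells Scd1 was called in B cells, in an endothelial-like cluster and in naive-like T cells. In B-like cluster 1, where Scd1 was second highest in vehicle mice (303 CPM), the combination lowered it to 178, 195 and 165 CPM, against 304, 294 and 395 CPM after SHP099 (log2 fold change -0.87 ± 0.16 SE, adjusted p = 0.00676) and 315, 298 and 297 CPM after vehicle (log2 fold change -0.75 ± 0.16 SE, adjusted p = 0.0104). The groups did not overlap in either comparison; 1 of 12 members was called in each, against 2.11% and 5.41% of genes. The call against SHP099 was lost without SHP099 mouse 3 (adjusted p = 0.0526) and that against vehicle without vehicle mouse 1 (adjusted p = 0.0696). Among B-like cells with at most 2 alveolar type 2 marker UMIs the changes were -0.87 and -0.74, both still called. In endothelial-like cluster 10 Scd1 stood at 29.9 and 22.8 CPM in 2 SX682 mice, against 241, 77.4 and 0 CPM in vehicle mice, groups that overlap (log2 fold change -2.59 ± 0.59 SE, adjusted p = 0.0389; 1 of 6 members, 0.454% of genes). The call was lost without SX682 mouse 1 or vehicle mouse 2 (adjusted p between 0.0879 and 0.161). Alveolar type 2 markers there summed to 45.5 to 64.1 CPM after SX682, against 49.03 to 1539 CPM after vehicle. These sums do not show the part of alveolar type 2 RNA in the Scd1 call.

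In T cell state 4, the naive-like state, Scd1 was called lower after SHP099 (adjusted p = 1.80e-04) and after SX682 (adjusted p = 0.00191), 1 of 5 members each, against 7.54% and 0.374% of genes, and was called non-additive (adjusted p = 4.29e-04; 1.27% of genes). It stood at 4.84, 0 and 0 CPM after SHP099, 0, 0 and 0 CPM after SX682, 4.57, 91.6 and 0 CPM after the combination and 207, 128 and 0 CPM after vehicle. The groups overlapped, since vehicle mouse 3 was at 0, and the reads came from few cells. Of 73 Scd1 UMIs in the 383 vehicle cells of this state, 72 lay in 2 cells that each held 100 or more alveolar type 2 marker UMIs, as did 24 of 29 in combination mice. The SHP099 mice had 2 Scd1 UMIs and the SX682 mice 0, so no fold change is given. Among cells with at most 2 alveolar type 2 marker UMIs no member was called in a T cell state after SHP099 or SX682. Scd1 in this state gave no adjusted p there. The SX682 call did not stand without vehicle mouse 1 (adjusted p = 0.175) and the non-additive call without combination mouse 2 (adjusted p = 0.437).

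Over all T cells 2 of 23 members were lower after SHP099, against 12.2% of genes. Ebp, a sterol isomerase, stood at 34.9, 49.7 and 32.5 CPM after SHP099, against 49.99, 75.2 and 84.7 CPM after vehicle, without overlap (log2 fold change -0.76 ± 0.21 SE, adjusted p = 0.0206). Its call was lost without SHP099 mice 1 or 3 or vehicle mice 2 or 3 (adjusted p between 0.0751 and 0.0926). Scd1 was the other, at 3.10, 2.88 and 4.39 CPM after SHP099, against 56.2, 32.5 and 0 CPM after vehicle, groups that overlap (log2 fold change -3.32 ± 0.89 SE, adjusted p = 0.0178); 72 of its 73 vehicle UMIs again lay in 2 cells rich in alveolar type 2 markers. It was also called non-additive (adjusted p = 0.0136; 1.13% of genes). The Scd1 calls were lost without SHP099 mice 1 or 2 or vehicle mouse 1 (adjusted p between 0.0536 and 0.221), and without SX682 mouse 3, combination mouse 2 or vehicle mouse 1 (adjusted p between 0.0636 and 0.144).

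In neutrophils 9 of the 29 members passed the filter in any of the 6 states (clusters 28 to 33), with Pmvk in 5 states and Acly in 4. No member was called in a state after SHP099, SX682 or the combination; 8.23%, 0.401% and 2.79% of all gene tests were. Of 18 member tests in each comparison 4, 2 and 1 had an unadjusted p below 0.05, and DESeq2 called 0 in each. Summed over all neutrophils, 19 members were tested and Fdps alone was called, lower after SHP099 (13.1% of 7477 genes called). It stood at 12.7, 15.7 and 13.8 CPM after SHP099, against 28.3, 21.2 and 36.9 CPM after vehicle, without overlap (log2 fold change -0.97 ± 0.28 SE, adjusted p = 0.0249), from 60 UMIs against 55. The call was lost without SHP099 mice 1 or 3 or vehicle mice 1 or 3 (adjusted p between 0.0554 and 0.127). The states were not present in the same proportions. Cluster 33 held 381 of 2823 neutrophils of SHP099 mice, against 619 of 1739 in vehicle mice (53 to 448 cells per vehicle mouse). Cluster 30 held 674, against 143. The part of these shares in the results over all neutrophils was not tested. Tumour epithelial markers in neutrophils summed to 63.9 to 113 CPM after SHP099 (Cldn4 and Cldn7 at 0 of 8), against 371 to 482 CPM after vehicle (Cldn4 at 0), and Fdps is high in tumour-like cells; among neutrophils with at most 2 such UMIs its change was -0.91 (adjusted p = 0.0457).

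The other genes the naming rule covers stayed uncalled in neutrophils. Hmgcs1 stood at 16.5, 6.96 and 23.3 CPM after SHP099, against 8.50, 8.14 and 12.3 CPM after vehicle (log2 fold change 0.67 ± 0.45 SE, adjusted p = 0.370), and Idi1 at 8.86, 9.85 and 8.48 CPM after SHP099, against 11.3, 1.63 and 0 CPM after vehicle (log2 fold change 0.53 ± 0.56 SE, adjusted p = 0.597). Srebf2 stood at 28.5, 32.5 and 38.2 CPM after SHP099, against 21.7, 32.6 and 15.4 CPM after vehicle (log2 fold change 0.43 ± 0.24 SE, adjusted p = 0.268). None of these 3 was called, and their groups overlapped. Srebf1 stood at 10.1, 11.6 and 9.54 CPM after SHP099, against 7.56, 4.89 and 9.22 CPM after vehicle (log2 fold change 0.58 ± 0.39 SE, adjusted p = 0.381), Insig1 at 21.5, 16.8 and 19.1 CPM after SHP099, against 17.01, 9.77 and 18.4 CPM after vehicle (log2 fold change 0.35 ± 0.28 SE, adjusted p = 0.499), and Scd2 at 14.6, 19.1 and 6.36 CPM after SHP099, against 12.3, 14.7 and 12.3 CPM after vehicle (log2 fold change 0.13 ± 0.36 SE, adjusted p = 0.869). Scd1 stood at 6.96, 3.48 and 4.24 CPM after SHP099, against 2.83, 8.14 and 9.22 CPM after vehicle, from 11 vehicle UMIs. Of these 4, the Srebf1 groups alone did not overlap. Sqle (7 UMIs in all vehicle neutrophils) and Fasn (6 UMIs) did not pass the filter, so a change of either was not detectable at this depth.

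Counted over all clusters that could be tested, SHP099 against vehicle gave 16 calls in 280 member tests, 15 of them higher, spread over 11 members and 8 clusters. This is 5.71% of member tests, against 6.78% of all gene tests. SX682 gave 1 call in 328 (0.305%, against 0.391% of gene tests), and the combination 7 in 304 (2.3%, against 4%). The combination against SX682 gave 10 in 302 (3.31%, against 3.95%) and against SHP099 1 in 254 (0.394%, against 0.545%). In none of these 5 comparisons was the share of member tests called above that of all gene tests.

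Srebf2 was the member SHP099 raised in the most clusters. Beside clusters 23 and 26 it was higher in the type 2 dendritic-like cluster 19, at 120.2, 136 and 119 CPM after SHP099, against 74.02, 76.4 and 79.2 CPM after vehicle (log2 fold change 0.73 ± 0.17 SE, adjusted p = 0.0141), and in B-like cluster 1, at 88.9, 99.4 and 91.01 CPM, against 62.4, 53.4 and 46.2 CPM (log2 fold change 0.70 ± 0.18 SE, adjusted p = 0.0230). Hmgcs1 was higher in cluster 19 as well, at 86.5, 107 and 102 CPM after SHP099, against 43.5, 59.6 and 56.6 CPM after vehicle (log2 fold change 0.92 ± 0.21 SE, adjusted p = 0.0117). Idi1 was higher in mature dendritic-like cluster 17, where vehicle levels of Idi1 were highest, at 342, 224 and 302 CPM after SHP099, against 163, 174 and 144 CPM after vehicle (log2 fold change 0.84 ± 0.21 SE, adjusted p = 0.0217). In none of these did the groups overlap. The calls were 2 of 18 members in cluster 19 (6.55% of genes called), 1 of 12 in cluster 1 (9.15%) and 1 of 12 in cluster 17 (4.93%). Srebf2 was lost in cluster 19 without SHP099 mouse 2 or vehicle mouse 1 (adjusted p between 0.0504 and 0.147) and in cluster 1 without SHP099 mouse 2 or vehicle mice 1 or 2 (adjusted p between 0.0561 and 0.0819), Hmgcs1 in cluster 19 without SHP099 mouse 2 or vehicle mouse 1 (adjusted p between 0.0578 and 0.115) and Idi1 in cluster 17 without SHP099 mice 1 or 3 or vehicle mice 1, 2 or 3 (adjusted p between 0.0592 and 0.137). Tumour epithelial markers summed to 23.2 to 42.6 CPM in cluster 17 after SHP099 (Krt7, Cldn4 and Cldn7 at 0 of 8), against 129.5 to 378 CPM after vehicle (Cldn4 and Cldn7 at 0). In cluster 19 they summed to 96.2 to 303 CPM after SHP099 (Krt7, Cldn4 and Cldn7 at 0), against 315 to 415 CPM after vehicle (Krt7 and Cldn4 at 0). Among cells with at most 2 of those UMIs Idi1 in cluster 17 changed by 0.78 (adjusted p = 0.0312) and Srebf2 in cluster 19 by 0.79 (adjusted p = 0.0435), and Hmgcs1 in cluster 19, at 0.88 (adjusted p = 0.0539), was no longer called. Fibroblast-like cluster 20 gave a call against SX682: Cyp51 was lower after the combination, at 23.95, 26.98 and 69.6 CPM, against 92.5 and 163 CPM in 2 SX682 mice (log2 fold change -1.84 ± 0.45 SE, adjusted p = 0.0293; 1 of 23 members, 8.04% of genes), a call lost without SX682 mouse 2 or combination mice 1 or 2 (adjusted p between 0.110 and 0.155). Tumour epithelial markers in that cluster summed to 232 to 432 CPM after the combination, against 1529 to 2147 CPM after SX682. Among cells with at most 2 of those UMIs Cyp51 was no longer called there.

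**Figure D5:**
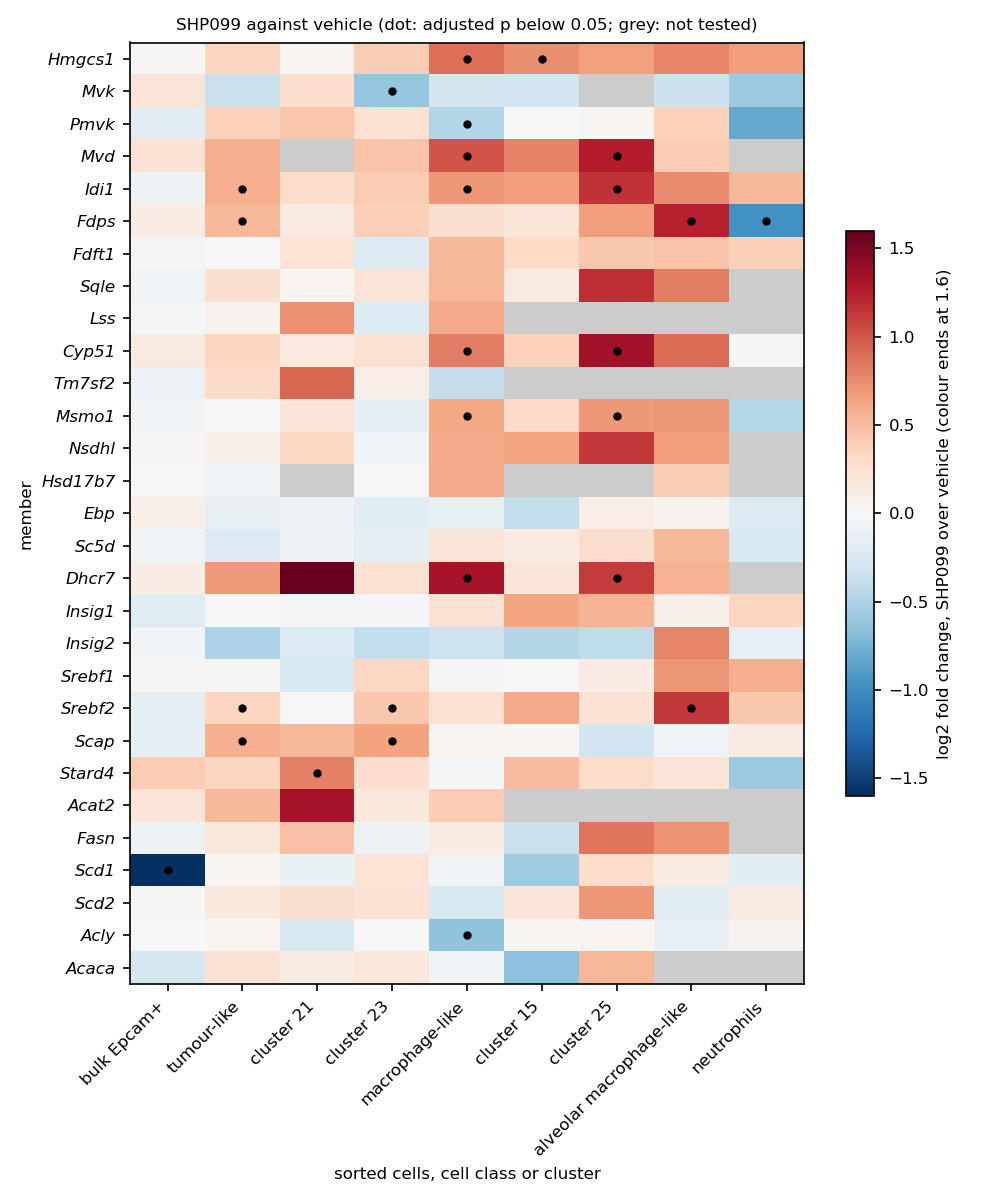
Log2 fold change of SHP099 over vehicle for each of the 29 members (rows) in bulk sorted cells and in single-cell classes and clusters (columns); a dot marks an adjusted p below 0.05, grey marks members not tested, and colour ends at 1.6. The column of macrophage-like cells holds 8 dots, the column of bulk cells 1, at Scd1.

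Some of these calls rested on the setting of the test. Of 67 calls in single cells and bulk, 28 were lost under 1 or more other settings, with adjusted p between 0.05004 and 0.543. A setting in which the gene had no adjusted p was not counted as a loss. Scd1 in T cell state 4 and in cluster 10 was counted in 5 settings, against 9 for Mvd in cluster 25. In macrophage-like cluster 25, Msmo1 after SHP099 was lost without scaling, with DESeq2, with only the 2 treatments compared and among cells with few alveolar type 2 marker UMIs. Idi1 after SHP099 was lost there in the last of these settings, as were Fasn, Msmo1 and Acly in the combination against SX682. Msmo1 in that comparison was also lost without scaling, with DESeq2 and among cells with few tumour epithelial marker UMIs. Acly was lost in all of these and with no filter or only 2 treatments. Fdps in cluster 26, combination against SX682, was lost without scaling, with DESeq2 and among cells with few epithelial UMIs. Pmvk in the 3 clusters together was lost among cells with few alveolar UMIs, and Hmgcs1 in cluster 15 among cells with few epithelial UMIs.

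In tumour-like cells Scap after SHP099 was lost without scaling, with no filter, with DESeq2, with the replicate block and with 2 treatments. The lower Fdps of the combination against SHP099 was lost without scaling, with no filter, with the block, with 2 treatments and among cells with few alveolar UMIs. Srebf2 after SHP099 and Fdps in the combination against SX682 were each lost with no filter and with 2 treatments, and Fdps after SX682 with 2 treatments. Of the combination's calls Acat2 was lost with no filter and with DESeq2, and Mvk in these settings, without scaling and with 2 treatments. Within cluster 23, Mvk and Scap after SHP099 and Mvk after the combination were lost with no filter, DESeq2, the block and 2 treatments. That Scap call was also lost among cells with few alveolar UMIs, and that Mvk call of the combination without scaling. Srebf2 after SHP099 was lost there with no filter, Mvd against SX682 with the block and with 2 treatments, and the non-additive Fdps call with DESeq2 size factors. Stard4 in cluster 21 was lost with the block and with 2 treatments. Elsewhere Fdps in neutrophils was lost without scaling and with DESeq2, and the non-additive Scd1 call over all T cells with DESeq2. Idi1 in cluster 17 and Srebf2 and Hmgcs1 in cluster 19 were lost among cells with few alveolar UMIs, Srebf2 also with no filter and Hmgcs1 also among cells with few epithelial UMIs. Cyp51 in cluster 20 was lost with 2 treatments and among cells with few epithelial UMIs. Both marker settings, at most 2 such UMIs in a cell, were chosen after seeing the data.

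Whether SHP099 acted differently on a member in macrophages and in tumour-like cells was tested directly, with limma on the difference of log2 CPM between the 2 cell types within each mouse. No member passed. Of 24 members 4 had an unadjusted p below 0.05 for cluster 25 against tumour-like cells, where 1.84% of 8099 genes were called and the lowest adjusted p of a member was 0.0830. Of 25 members 5 had one for cluster 26, where 1.76% of 7372 genes were called and the lowest adjusted p was 0.0613. The rises in macrophages are therefore not shown to differ from those in tumour-like cells. For Mvd the difference between cluster 25 and tumour-like cells was 0.73 ± 0.31 (SE; adjusted p = 0.243), for Cyp51 0.92 ± 0.33 (SE; adjusted p = 0.166) and for Scap -0.89 ± 0.24 (SE; adjusted p = 0.0830).

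Other genes of the same pathways were counted from 4 lists. Of 12 genes of sterol storage, efflux and liver X receptor (LXR) targets, all tested in the macrophage-like clusters together, 6 rose after SHP099 and 1 fell, against 9.55% and 8.48% of all genes there. Abcg1, which exports cholesterol to lipoprotein, stood at 294, 199 and 198 CPM after SHP099, against 91.1, 105 and 107 CPM after vehicle (log2 fold change 1.19 ± 0.13 SE, adjusted p = 5.08e-05). Soat1, which esterifies cholesterol for storage, stood at 299.6, 238 and 327 CPM after SHP099, against 163, 136 and 158 CPM after vehicle (log2 fold change 0.91 ± 0.11 SE, adjusted p = 1.16e-04). Nceh1, which hydrolyses those esters, stood at 207, 151 and 174 CPM after SHP099, against 97.3, 105 and 101 CPM after vehicle (log2 fold change 0.81 ± 0.11 SE, adjusted p = 2.84e-04). The groups did not overlap for these 3. The others that rose were Lipa, Npc2 and Nr1h3, and Mylip fell (log2 fold change -0.57 ± 0.13 SE, adjusted p = 0.00785). Within cluster 25, 2 of the 11 tested rose (Abcg1 and Npc2) and 1 fell (Mylip), against 6.69% of genes called, with Abcg1 at 0.57 ± 0.16 (SE; adjusted p = 0.0424). Soat1, Nceh1, Lipa and Nr1h3 were not called there, and the part of the cluster shares in their rises was not tested. Npc2 was lost there without SHP099 mice 1 or 3, SX682 mouse 2, combination mouse 2 or vehicle mice 1, 2 or 3. Mylip was lost there without SHP099 mice 2 or 3 or vehicle mice 2 or 3. The Nr1h3 call was lost without SHP099 mice 2 or 3 or vehicle mice 2 or 3 (adjusted p between 0.0627 and 0.0869). The cluster 25 groups overlapped for Abcg1, which was not called without SHP099 mice 1 or 2, SX682 mouse 2, combination mice 1, 2 or 3 or vehicle mice 1 or 2 (adjusted p between 0.0566 and 0.223). In cluster 26, Ch25h, which makes an oxysterol, stood at 74.8, 77.3 and 72.4 CPM after SHP099, against 24.4, 31.7 and 36.7 CPM after vehicle (log2 fold change 1.34 ± 0.19 SE, adjusted p = 6.10e-05), and at 91.5, 81.4 and 83.8 CPM after the combination (log2 fold change 1.53 ± 0.18 SE, adjusted p = 9.50e-06 against vehicle).

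Of 14 isoprenoid and sterol accessory genes, 13 were tested in macrophage-like cells, where 3 rose and 0 fell after SHP099 (18% of all genes called); Nus1, a subunit of the enzyme that makes dolichol, had the lowest adjusted p (log2 fold change 0.73 ± 0.15 SE, adjusted p = 0.00356). In tumour-like cells 1 of 13 rose (Osbp, log2 fold change 0.51 ± 0.15 SE, adjusted p = 0.0328) and 2 fell, against 13.5% of all genes called, with Cyb5r3, the reductase that passes electrons to fatty acid and sterol desaturation, at 144, 97.04 and 96.9 CPM after SHP099, against 207, 210.4 and 218 CPM after vehicle (log2 fold change -0.92 ± 0.15 SE, adjusted p = 0.00136). Of 26 genes of fatty acid elongation, desaturation and activation, 0 rose and 6 fell after SHP099 among 23 tested in tumour-like cells, against the same 13.5% of genes called in either direction. The 3 with the lowest adjusted p there were Slc25a1, the mitochondrial citrate carrier (log2 fold change -0.47 ± 0.11 SE, adjusted p = 0.0112), Elovl1, an elongase of very long fatty acids (log2 fold change -0.67 ± 0.17 SE, adjusted p = 0.0220), and Dgat2, which makes triglyceride (log2 fold change -0.94 ± 0.26 SE, adjusted p = 0.0268). In macrophage-like cells 2 of 23 rose and 2 fell, a share at the 18% of all genes called, with Me1, the malic enzyme that yields NADPH, at 2.39, 0 and 1.36 CPM after SHP099, against 5.25, 7.27 and 7.07 CPM after vehicle (log2 fold change -2.41 ± 0.58 SE, adjusted p = 0.0104). In neutrophils 2 of the 15 tested rose after SHP099 (Dgat1 and Acsl4) and 3 fell (Me1, Tecr and Dgat2), against 13.1% of all genes called. Dgat1, which also makes triglyceride, stood at 928, 811 and 723 CPM after SHP099, against 585, 422 and 424 CPM after vehicle (log2 fold change 0.77 ± 0.13 SE, adjusted p = 7.38e-04). Dgat2 stood at 75.3, 71.9 and 105 CPM after SHP099, against 175, 174 and 117 CPM after vehicle (log2 fold change -0.95 ± 0.27 SE, adjusted p = 0.0217). Me1 had a log2 fold change of -2.39, Tecr, a reductase of fatty acid elongation, of -0.89 and Acsl4, which activates polyunsaturated fatty acids, of 0.83 (adjusted p = 0.00330, 0.00299 and 0.0230). The Dgat2 groups did not overlap. Its call was lost without SHP099 mice 1 or 2 or vehicle mice 1 or 2 (adjusted p between 0.0739 and 0.106). Of the isoprenoid list 2 of 11 fell in neutrophils (Cyb5r3 and Erg28), and of the sterol storage list 1 of 9 rose (Abcg1) and 1 fell (Npc2). The Npc2 groups overlapped in neutrophils. Its call was lost without SHP099 mice 1 or 2, SX682 mouse 2, combination mice 1, 2 or 3 or vehicle mice 1 or 2. Acsl4 was lost there without SHP099 mice 1 or 2 or vehicle mice 1 or 2, and Cyb5r3 and Erg28 without vehicle mouse 1. The part of the state shares in these neutrophil results was not tested. Of 7 genes of SREBP processing, 6 were tested in each of these cell types. After SHP099 none was called in macrophage-like or tumour-like cells, and Ubxn1, at -0.37 ± 0.12 (SE; adjusted p = 0.0404) on the log2 scale, fell in neutrophils. After the combination Ubxn1 was lower than after vehicle in macrophage-like cells (log2 fold change -0.29 ± 0.08 SE, adjusted p = 0.0249), a call lost without combination mice 1, 2 or 3 or vehicle mice 1, 2 or 3 (adjusted p between 0.0517 and 0.0976). Leaving out 1 mouse ended some of these calls. In tumour-like cells Osbp needed SHP099 mice 1, 2 and 3 and vehicle mice 1 and 2 (without 1 of them adjusted p between 0.0640 and 0.112), Slc25a1 SHP099 mouse 2 (without it adjusted p = 0.0582), Elovl1 SHP099 mice 1 and 2 and vehicle mice 1 and 3 (without 1 of them adjusted p between 0.0509 and 0.125) and Dgat2 SHP099 mice 1, 2 and 3 and vehicle mice 1 and 3 (without 1 of them adjusted p between 0.0508 and 0.112). In neutrophils Ubxn1 needed SHP099 mice 1, 2 and 3, SX682 mouse 2, combination mice 1, 2 and 3 and vehicle mice 1, 2 and 3 (without 1 of them adjusted p between 0.0603 and 0.159). No gene of the 4 lists was called in bulk.

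The counts of some members can hold reads of a neighbour. In the GENCODE annotation of mm10, exons of Hmgcs1, Idi1, Fdps, Fdft1, Lss, Cyp51, Tm7sf2, Srebf1, Scap and Scd2, 10 of the 29 members, overlap exons of another gene, such as Akap9 for Cyp51 (chr5:4081145-4104746) and Ctsb for Fdft1 (chr14:63145150-63179578). Mvd (chr8:122433601-122443422), Dhcr7 (chr7:143823145-143848410) and Msmo1 (chr8:64718139-64733792), which rose in macrophage-like cells, overlap none.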

How the data were processed

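Read counts per gene of 6 bulk libraries and raw UMI counts of single cells were used as the authors deposited them, with their cluster, state, mouse and treatment labels. The submitters' processing notes name bcl2fastq, Cell Ranger, STAR, Picard, HTSeq, DESeq2, bedtools and R 3.3.0 with the mm10 build; not given in the sources used here are other versions, cell filters, doublet treatment and counting strand. Positions follow the GENCODE annotation of mm10.

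UMIs were summed per mouse over each cluster, state or class for mice with at least 10 cells, and a contrast was tested where both groups had 2 or more such mice. edgeR 4.0.16 (TMM scaling, filterByExpr by treatment, two-sided quasi-likelihood test) was fitted to the bulk libraries and to all 4 treatments together in each set of cells, with Benjamini-Hochberg adjustment over all genes per set and contrast. CPM are counts scaled to the TMM-adjusted library total. The non-additive term is combination minus SHP099 minus SX682 plus vehicle on the log2 scale. Clusters were named from marker lists; cell type differences were fitted with limma 3.58.1 on log2 CPM (prior count 2), added after seeing the data. The fits were tested on simulated data. Alternatives, including DESeq2 1.42.0, are given with their effect at the end.

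The members and the 4 other lists were chosen with earlier results of these data known. The rule gives values for members called in bulk, for up to 6 members per contrast called in the most clusters, for Srebf1, Srebf2, Insig1, Hmgcs1, Sqle, Idi1, Fasn, Scd1 and Scd2 in tumour, neutrophil and macrophage cells, and for up to 3 genes per other list and contrast. The other members and list genes given values were chosen after these were seen. Some genes of these pathways are not reported here.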

Additional observations from a re-analysis of the deposited data

Results flagged for a closer look

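The non-additive term was called for 2 members, Fdps in tumour-like cells and Scd1 in T cells. For Fdps the term was -0.87 in tumour-like cells together and -0.81 in cluster 23 alone, since the SHP099 and SX682 mice lay above both the combination and the vehicle mice. For Scd1 the fitted term was 12.23 in T cell state 4 and 7.03 over all T cells; in state 4 the SX682 mice had 0 Scd1 UMIs, so the size of that term depends on the prior count of the fit. In the vehicle mice 72 of 73 Scd1 UMIs in state 4 lay in 2 cells with 100 or more alveolar type 2 marker UMIs. Over all T cells 61 of 80 Scd1 UMIs of combination mice lay in 4 such cells. The Scd1 calls thus rest on few cells and are not read as a drug effect in T cells.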

How the results depend on the processing

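Direction was kept by each of the 67 member calls under every alternative that gave an adjusted p. The direction of uncalled members and of genes of the other lists was not compared. The bulk count was 2 by DESeq2, against 1 by edgeR. Counts in brackets are those of the report. For SX682 over clusters (1 call) the count was 2 without scaling, 4 without the filter, 2 with the replicate block, 0 with 25 cells per mouse and 0 with only the 2 treatments compared. Without the filter the combination had 15 calls against vehicle (7), 19 against SX682 (10) and, in T cell states, 2 (0), the non-additive term 7 (4) and SHP099 over clusters 24 (16). Cells with at most 2 tumour epithelial marker UMIs left 6 calls of combination against SX682, 0 non-additive calls (tumour clusters drop out by construction), and, of the calls over clusters after SHP099, 2 of 9 in the isoprenoid list, 13 of 22 in the fatty acid list (DESeq2 also 13) and 1 of 2 in the SREBP processing list. That last list also had 1 without scaling, with 25 cells, with only the 2 treatments compared and with at most 2 alveolar type 2 marker UMIs. The last setting left 2 non-additive calls (DESeq2 also 2) and 4 of 11 sterol storage calls. The T cell state calls after SHP099 and SX682 (1 each) were 0 under DESeq2, with only the 2 treatments compared and in both marker settings. Scd1 in T cell state 4, the member called there, gave no adjusted p in those settings. Neutrophil states after SHP099 had 1 call (0) with only the 2 treatments compared. Causes were not tested.

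Leaving out 1 mouse or library gave 0 to 1 calls in bulk, 8 to 19 over clusters after SHP099, 0 to 2 after SX682, 3 to 10 after the combination, 1 to 1 against SHP099 and 3 to 12 against SX682; 0 to 1 in neutrophil states after SHP099 and 0 to 0 after the other treatments; 1 to 1, 0 to 1 and 0 to 1 in T cell states after SHP099, SX682 and the combination; 1 to 4 non-additive; 8 to 16 in whole classes (15); and 4 to 9, 7 to 22, 4 to 9 and 1 to 3 in the isoprenoid, fatty acid, sterol storage and SREBP processing lists. Same-numbered mice or libraries deviated from their group means with correlations between -0.306 and 0.557. No comparison made here had all 3 pairs above 0.1, although all 3 SHP099 and SX682 pairs of cluster 25 did (0.361, 0.104 and 0.2), so the numbers were not taken to pair samples, and a factor that some of them share is not excluded; with the replicate block 60 of the named calls stood, 7 did not, and the count over clusters after SHP099 was 15.

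Low UMI counts of single genes and 3 mice or libraries per group limit precision; the smallest exact permutation p for 3 against 3 is 0.1.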
